A study of Mus musculus with 16 samples.

Results

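Lipoproteins carry fat and cholesterol out of hepatocytes, and 10 genes of their protein parts and assembly were followed here in a mouse hepatoma line that lacks exon 5 of Eef1d. They were Apoa1, Apoa2, Apoa4, Apob, Apoc1, Apoc3, Apoe, Apoh, Apom and Mttp, chosen by name among the 22392 genes of the count table. For each gene the transcript with the largest sum of counts over all 16 libraries was used. These genes were compared for RNA, for ribosome-protected fragments (RPFs, or footprints) and for translation efficiency (TE), the footprint level relative to the RNA level.

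Apob is the structural protein around which very low density lipoproteins form, and the microsomal triglyceride transfer protein encoded by Mttp loads lipid onto it in the ER while it is being made. Apoe, the apoa and the apoc proteins are smaller, exchangeable apolipoproteins that stabilize the particle, activate or restrain lipases and serve as ligands for receptors. Apolipoproteins are secreted, so their mRNAs are translated at the ER membrane. Eef1d encodes a subunit of EEF1B, the complex that recharges the elongation factor EEF1A, and the comparison asks whether translation differs once its alternative exon 5 is gone.

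Hepa1-6 is a mouse hepatoma cell line. WT cells were compared with 3 Eef1d exon 5 KO lines (KO1, KO2 and KO3), each grown from 1 edited cell, so a difference that belongs to a single clone and one that belongs to the deletion cannot be told apart within a line. Guide RNAs on both sides of exon 5 had removed it in frame, with 1 pair of guides for KO1 and KO2 and another pair for KO3. No line received a treatment beyond the edit. Each line had 2 RNA-seq and 2 Ribo-seq libraries, and both libraries of a replicate came from 1 lysate. The methods of the study call the replicates biological, while the labels do not say that they were separate cultures, and p-values measure the spread between these libraries.

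Counts summed to between 24726706 and 30748268 per RNA-seq library over all transcripts, and to between 2604223 and 11147904 per Ribo-seq library. Replicate 1 and replicate 2 of KO1 were the deepest and the shallowest Ribo-seq library. The Eef1d transcript with exon 5 had 116% and 116.2% of the counts of the transcript without it in WT RNA-seq, and between 89.8% and 92.6% in RNA-seq of the 6 KO libraries. Its footprints were 112.6% and 113.9% of those of the other transcript in WT, and from 95.97% to 98.94% in the KO libraries. Reads on shared exons count for both transcripts, and the KO libraries lay below the WT libraries in both assays.

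The line was checked against 12 hepatocyte markers. Alb, Afp, Trf, Fgb, Hnf4a, Krt8 and Krt18 were counted in every library, with Krt18 the most abundant in WT RNA-seq at 1480 and 1530 CPM, the count relative to the library total. Ttr, Ahsg, Fga, Serpina1a and Serpina1b, which mature liver makes in quantity, had at most 14 counts in any RNA-seq library. Serpina1a and Serpina1b are close copies of each other, and their counts are uncertain. Markers of macrophages (Adgre1 and C1qa) and of enterocytes (Cdx1) were at 0 in all 16 libraries, while Cd68 and Csf1r had 70 and 63 and 31 and 62 RNA counts in WT cells. Of 7 fibroblast markers, Dcn had 10386 and 10492 RNA counts there and Pdgfra 87 and 98, while Col1a1, Col1a2, Col3a1, Pdgfrb and Lum had at most 11, and the enterocyte marker Vil1 had 2106 and 2163.

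The sequences around the start codon are shown for the 3 genes with enough footprints for a TE, since translation of the counted coding sequence begins there. The first 5 codons were left out of the counts. Each runs from 6 bases before the start codon, which is in capitals, on the coding strand of GRCm38 (mm10). The start codon of Apoe lies at chr7:19698228-19698230 on the minus strand, that of Apob at chr12:7977779-7977781 on the plus strand and that of Mttp at chr3:138134103-138134105 on the minus strand.
Apoe: gcgaagATGaaggctctgtgggccgtgctg
Apob: tccgccATGggcccacgaaagcctgccctg
Mttp: gaggaaATGacagtcgtgatggggaaatgt
A purine stands 3 bases before the start codon in all 3 genes. The 4th base of the coding sequence is G in Apob and A in Apoe and Mttp.

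The 250 bases before the RefSeq start of the same genes are shown because their RNA moved between lines. RefSeq entries (GRCm38.p6) were matched by symbol for 8 of the 10 genes, all but Apoc1 and Apoc3. Both strands were searched for TATAAA (the core of the TATA box), CAAAGNNCA (part of the site of HNF4A, a hepatocyte transcription factor) and GGGCGG (GC box), and matches are in capitals. The windows are chr7:19699189-19699438 (minus strand) for Apoe, chr12:7977427-7977676 (plus strand) for Apob and chr3:138143419-138143668 (minus strand) for Mttp.
Apoe: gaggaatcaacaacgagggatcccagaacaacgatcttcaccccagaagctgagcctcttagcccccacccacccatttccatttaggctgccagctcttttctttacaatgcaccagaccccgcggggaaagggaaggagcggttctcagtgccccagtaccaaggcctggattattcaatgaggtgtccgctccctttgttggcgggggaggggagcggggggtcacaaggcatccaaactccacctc
Apob: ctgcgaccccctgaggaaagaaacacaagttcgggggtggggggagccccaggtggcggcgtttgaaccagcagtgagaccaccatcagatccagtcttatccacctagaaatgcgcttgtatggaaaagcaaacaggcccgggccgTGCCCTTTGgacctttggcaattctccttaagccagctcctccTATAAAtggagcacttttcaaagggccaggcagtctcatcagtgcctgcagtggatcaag
Mttp: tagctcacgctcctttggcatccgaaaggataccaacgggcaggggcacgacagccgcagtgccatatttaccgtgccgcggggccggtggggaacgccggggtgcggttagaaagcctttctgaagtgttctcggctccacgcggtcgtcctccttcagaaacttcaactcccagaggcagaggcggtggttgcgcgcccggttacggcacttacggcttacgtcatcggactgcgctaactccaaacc
The Apob window holds TATAAA, which begins 60 bases before the start, and a match to CAAAGNNCA on the other strand 103 bases before it. No match was found in the windows of Apoe and Mttp printed here. The Mttp window lies about where the gene Trmt10a starts, 1.5 kb from the annotated start of Mttp. RefSeq has 2 further windows for Apoe, of which the one at chr7:19698622-19698871 holds TATAAA. Over all 32851 promoters of the same length, 12.37% hold TATAAA, 5.49% CAAAGNNCA and 32.74% GGGCGG. For Apoe the printed window ends where the annotated gene begins. The annotated Mttp gene begins at position 138144968 of chromosome 3, upstream of the printed window, and that of Apob at position 7977648 of chromosome 12, inside it. These are bounds of the genes, and a counted transcript can start elsewhere within them.

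A mean of at least 10 counts over the 8 libraries of an assay was reached by Apoe, Apob, Mttp, Apoa2 and Apoc1 in RNA-seq and by Apoe, Apob and Mttp in Ribo-seq. The remaining 5 genes were near the floor in both assays. Apoa1, the main protein of high density lipoproteins, had between 0 and 14 RNA counts per library, with 14 and 9 in WT cells. Apoh, a phospholipid-binding plasma protein, and Apom, which carries sphingosine 1-phosphate, had at most 3 RNA counts in any library. Apoc3, an inhibitor of lipoprotein lipase, was at 0 in all 16 libraries, and Apoa4, in adult mammals mainly an intestinal apolipoprotein, had a single count, a footprint in KO2. A count of 0 allows up to between 0.232 and 0.286 CPM in an RNA-seq library and between 0.614 and 2.63 CPM in a Ribo-seq library, which covers counting error only. No fold change is given for these 5 genes.

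Per length of counted coding sequence, Apoe stood far above the rest. Its RNA level in WT cells was 2104 ± 40.5 CPM per kb (SD, n = 2), rank 93 of 11415 genes. Apoa2, a protein of high density lipoproteins, had 10.5 ± 1.96 CPM per kb, Apoc1 9.0 ± 3.06, Apob 6.75 ± 0.145 and Mttp 6.70 ± 0.835. Neighbours in this order from Apoa2 to Mttp overlapped in their libraries, and all 4 lay below the median gene, at 22.7 CPM per kb. On the footprint scale Apoe had 3087 ± 2.12 CPM per kb in WT cells (rank 59 of 10304), against 9.21 ± 1.54 for Mttp and 7.75 ± 0.203 for Apob. In WT cells Apoe took 0.189% and 0.195% of the RNA counts and 0.278% and 0.285% of the footprints, summed over 1 transcript per gene.

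Apoe, the ligand through which remnant particles bind their receptors, fell steeply in 1 clone. Its RNA counts were 20613 and 22659 in WT cells, 1679 and 1585 in KO1, 20313 and 25770 in KO2 and, in KO3, 27880 and 31951. Its footprint counts were 9960 and 6757 in WT cells, 985 and 285 in KO1, 11178 and 8509 in KO2 and, in KO3, 12714 and 11765. Both KO1 libraries lay below all others in each assay, and after normalization for depth both KO3 libraries lay above all others in each assay. Apoe RNA in KO1 was 12.9-fold lower than in WT cells (log2 change -3.69, standard error 0.0463, edgeR adjusted p = 2.8e-52). Footprints fell by 3.72 on the log2 scale (standard error 0.0797, edgeR adjusted p = 6.78e-38), which is 13.2-fold. In RNA the fall of Apoe ranked 58 among 11515 genes, and in footprints 25 among 10335. Even so, Apoe kept rank 998 of 11415 by RNA level in KO1, with 163 CPM per kb. In bulk RNA, fewer cells with Apoe and less Apoe in each cell cannot be told apart.

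In KO2 the log2 change of Apoe was 0.07 in RNA (standard error 0.0456, edgeR adjusted p = 0.28) and 0.02 in footprints (standard error 0.0595, edgeR adjusted p = 0.887), and neither passed the test. Without replicate 1 of KO2 the RNA change of 0.14 passed it (edgeR adjusted p = 0.00266). In KO3 Apoe rose by 0.34 in RNA (standard error 0.0431, edgeR adjusted p = 1.21e-10) and by 0.28 in footprints (standard error 0.0649, edgeR adjusted p = 0.000864). With 1 replicate left out, the rise in RNA lay between 0.22 and 0.46. The footprint call in KO3 was lost without replicate 2 of KO3 (0.155, edgeR adjusted p = 0.11).

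**Figure D1:**
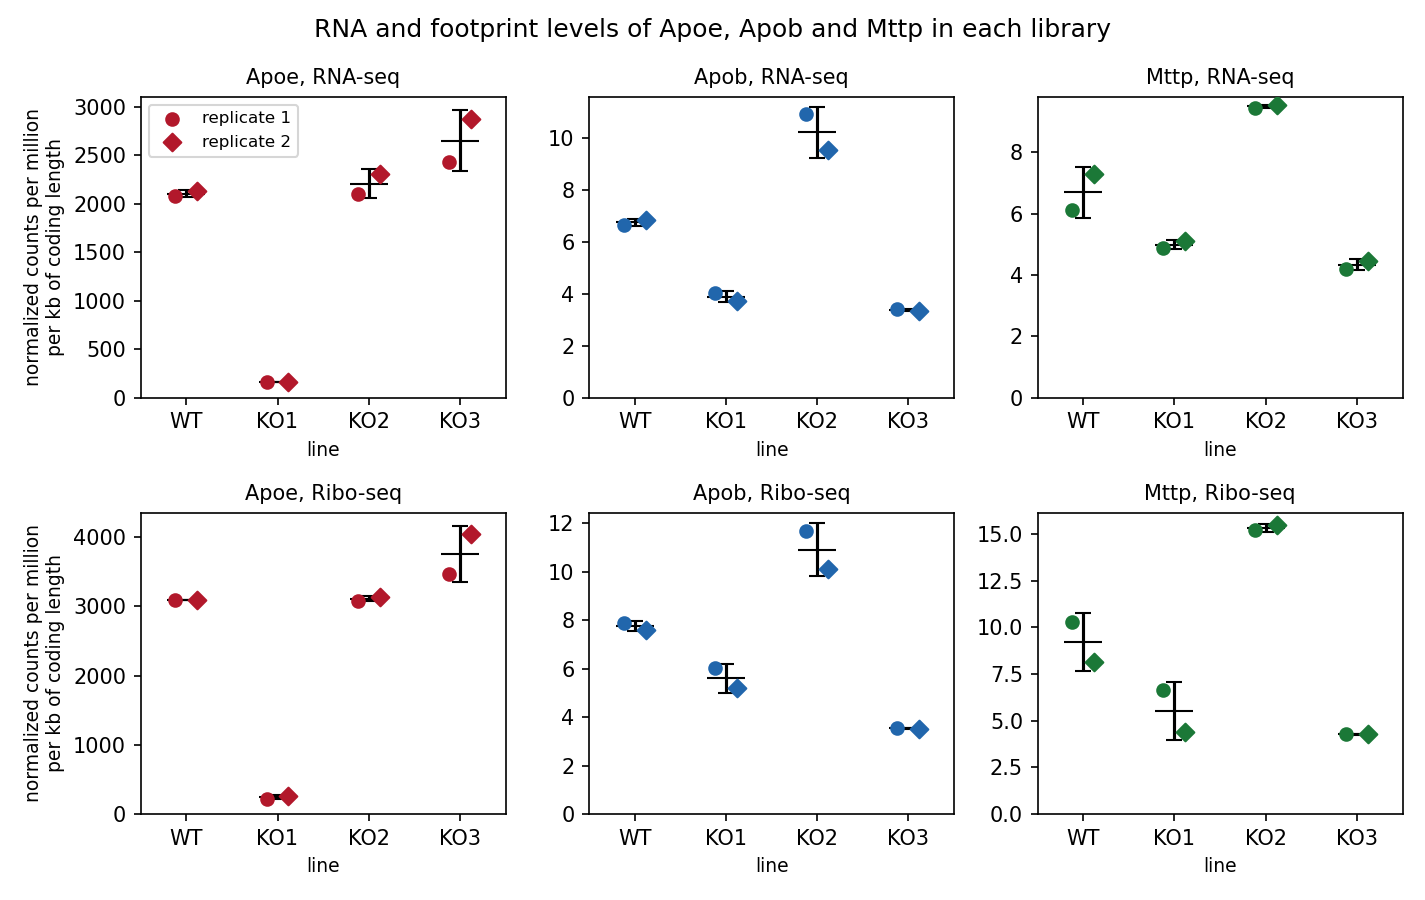
Levels of Apoe, Apob and Mttp in CPM per kb of counted coding length (vertical axes, from 0, each with its own scale) in WT, KO1, KO2 and KO3, for RNA-seq (top) and Ribo-seq (bottom). Symbols are the 2 libraries of a line, the bar is their mean and the whiskers the SD. Apoe is low in KO1 alone, at 163 CPM per kb in RNA against 2104 in WT, while Apob and Mttp are highest in KO2 and lowest in KO3.

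Apob and Mttp, the pair that builds the particle, were both lower in KO1 and KO3 and higher in KO2. Apob RNA counts were 983 and 1084 in WT cells, 628 and 535 in KO1, 1573 and 1581 in KO2 and, in KO3, 583 and 554. Mttp RNA counts were 181 and 231 in WT cells, 152 and 146 in KO1, 273 and 317 in KO2 and, in KO3, 144 and 148. For each of the genes, the libraries of every clone lay wholly to one side of the WT libraries.

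Apob RNA fell by 0.80 on the log2 scale in KO1 (standard error 0.0783, edgeR adjusted p = 1.54e-12) and by 0.99 in KO3 (standard error 0.0817, edgeR adjusted p = 1.9e-18). It rose by 0.60 in KO2 (standard error 0.0754, edgeR adjusted p = 2.92e-06). Mttp RNA fell by 0.43 in KO1 (standard error 0.15, edgeR adjusted p = 0.0158) and by 0.62 in KO3 (standard error 0.153, edgeR adjusted p = 0.000493), and it rose by 0.51 in KO2 (standard error 0.13, edgeR adjusted p = 0.00663). The Mttp call in KO1 was lost with DESeq2 (adjusted p = 0.114), without replicate 2 of WT (edgeR adjusted p = 0.24) and without replicate 1 of KO1 (edgeR adjusted p = 0.066). That in KO2 was lost without replicate 1 of WT (edgeR adjusted p = 0.121).

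Footprints of both genes had the same signs as their RNA. Apob footprint counts were 379 and 248 in WT cells, 400 and 82 in KO1, 630 and 408 in KO2 and, in KO3, 194 and 152. Those of Mttp were 99 and 53 in WT cells, 88 and 14 in KO1, 164 and 125 in KO2 and, in KO3, 47 and 37. The spread within KO1 follows the depths of its libraries, and after normalization each clone was separate from WT for both genes. Apob footprints fell by 0.43 in KO1 (standard error 0.104, edgeR adjusted p = 0.00124) and by 1.14 in KO3 (standard error 0.104, edgeR adjusted p = 3.08e-12), and rose by 0.51 in KO2 (standard error 0.0899, edgeR adjusted p = 0.000206). Mttp footprints fell by 0.62 in KO1 (standard error 0.202, edgeR adjusted p = 0.0169) and by 1.14 in KO3 (standard error 0.197, edgeR adjusted p = 1.26e-05), and rose by 0.71 in KO2 (standard error 0.153, edgeR adjusted p = 0.00163). With DESeq2 the calls of Apob and Mttp in KO1 and of Mttp in KO2 were lost in footprints (adjusted p = 0.115, 0.342 and 0.0855). In thinned libraries the Mttp change in KO2 was 0.33 and did not pass the test (edgeR adjusted p = 0.523). With 1 replicate left out, the Mttp change in KO1 lay between -1.08 and -0.42. Without replicate 1 of WT, the Mttp call in KO1 was lost as well (edgeR adjusted p = 0.355).

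Apoa2 and Apoc1 had few counts, and their footprints were near the floor. Apoa2 RNA counts were 28 and 39 in WT cells, 29 and 26 in KO1, 41 and 37 in KO2 and, in KO3, 56 and 70. Once scaled to depth, the KO3 libraries lay above all others, those of KO1 just below WT and those of KO2 across it. The rise of 0.78 in KO3 passed the test (standard error 0.281, edgeR adjusted p = 0.0167). Apoc1, a small apolipoprotein encoded beside Apoe, had 29 and 19 RNA counts in WT cells, 0 and 1 in KO1, 29 and 44 in KO2 and, in KO3, 17 and 8. Both KO1 libraries lay below all others. Scaled to depth, the KO1 count was 0.0214 times that of WT cells, with an exact 95% interval from 0.000532 to 0.125. That interval covers counting error only and not the spread between libraries. The edgeR test called the fall (adjusted p = 1.23e-06), but Apoc1 passed the filter on low counts there through the WT libraries alone, where it was high. In KO3 Apoc1 RNA fell by 1.07 (standard error 0.443, edgeR adjusted p = 0.0416). With 1 replicate left out, that change lay between -1.68 and -0.65. Both KO3 calls were lost with DESeq2 (adjusted p = 0.133 for Apoa2 and 0.223 for Apoc1), without replicate 1 of WT (edgeR adjusted p = 0.165 and 0.447) and without replicate 2 of KO3 (edgeR adjusted p = 0.191 and 0.366). The Apoc1 call also missed the threshold without a filter on low counts, with all libraries in 1 fit and in thinned libraries (edgeR adjusted p = 0.0573, 0.0611 and 0.0513).

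Counted over the 5 genes tested in RNA, 4 were lower in KO1, 2 were higher in KO2, and in KO3 3 were lower and 2 higher. Apoc1, 1 of the 4 in KO1, entered that comparison through its WT counts alone. Among all genes tested, 46.7% were called in KO1 (22.1% higher and 24.6% lower), 20.4% in KO2 (11.6% higher and 8.84% lower) and 45.4% in KO3 (23.1% higher and 22.3% lower). Of the 3 genes above the floor in footprints, 3 were lower in KO1, 2 were higher in KO2, and in KO3 2 were lower and 1 higher. The shares among all genes were 26.9% in KO1 (11.7% higher, 15.2% lower), 11.7% in KO2 (6.74% higher, 4.96% lower) and 30.6% in KO3 (14.9% higher, 15.7% lower). These are counts over few genes, and no test of the group as a whole was made. All comparisons with WT share the WT libraries.

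The clones also differed from each other. An edgeR test that the 3 clones are equal called all 5 genes in RNA, where 74.0% of all genes were called, and all 3 in footprints, where 59.5% were. For Apoe the adjusted p was 5.13e-34 in RNA and 7.14e-34 in footprints. The Apoa2 call in RNA was lost without replicate 2 of KO3 (edgeR adjusted p = 0.105).

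TE of Apoe, Apob and Mttp did not pass the test in any clone, with edgeR or with DESeq2, which gave no adjusted p for Apob in KO1. Only Apob in KO1 had an unadjusted p under 0.05 in edgeR. In WT cells the log2 TE was 0.55 ± 0.029 for Apoe, 0.45 ± 0.421 for Mttp and 0.20 ± 0.069 for Apob (SD, n = 2), at the 85.9, 81.9 and 69.3 percentile of 10116 genes with a median of -0.16. In KO1, with 12.9-fold less RNA, Apoe had a log2 TE of 0.46 and 0.70 in its 2 libraries, against 0.57 and 0.53 in WT cells. The groups overlapped. The log2 TE change of Apoe was -0.02 in KO1 (95% interval -0.19 to 0.15), -0.05 in KO2 (-0.21 to 0.10) and -0.06 in KO3 (-0.22 to 0.10). These are fitted values, and in KO1 the library means differ in the other direction, at 0.58 against 0.55 in WT cells.

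**Figure D2:**
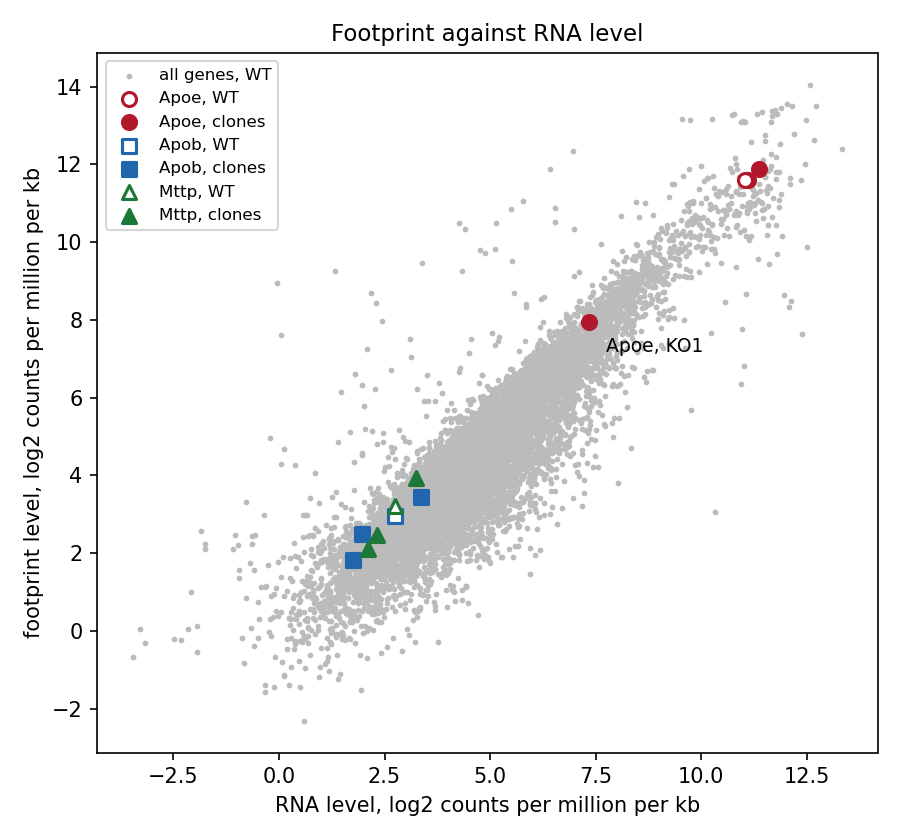
Footprint level against RNA level, both as log2 CPM per kb (means of 2 libraries), for all genes in WT cells (grey) and for Apoe, Apob and Mttp in WT cells (open symbols) and in the clones (filled). Apoe in KO1 lies lower on both axes but within the band of all genes, at a log2 TE of 0.58 against 0.55 in WT cells.

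Apob had a log2 TE of 0.25 and 0.15 in WT cells, 0.58 and 0.47 in KO1, 0.10 and 0.09 in KO2 and, in KO3, 0.06 and 0.07. The KO1 libraries lay above those of WT and the other clones below. The change in KO1 was 0.38 (95% interval 0.13 to 0.62), with an unadjusted p of 0.00562 and an adjusted p of 0.451 in edgeR. In KO2 it was -0.10 (-0.34 to 0.14) and in KO3 -0.15 (-0.41 to 0.11).

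Mttp varied more between libraries and had fewer counts. Its log2 TE was 0.75 and 0.15 in WT cells, 0.44 and -0.20 in KO1, 0.68 and 0.70 in KO2 and, in KO3, 0.03 and -0.07. Only KO3 lay wholly below WT. The changes of Mttp were -0.19 in KO1 (95% interval -0.69 to 0.32), 0.21 in KO2 (-0.19 to 0.61) and -0.51 in KO3 (-1.01 to -0.002). In KO3 the edgeR p was 0.0547 unadjusted and 0.826 adjusted. The interval leaves out 0 because it assumes a normal distribution, which the edgeR test does not.

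Over all genes, 0.0942% were called for TE in KO1, 0.0173% in KO2 and 0.104% in KO3, which is 11, 2 and 12 genes. Unadjusted p-values under 0.05 were found for 827, 495 and 702 genes. A difference in TE between clones was called for 1.03% of all genes and for 0 of these 3, with an adjusted p of 0.0673 for Apob in edgeR. That p was 0.0387 without a filter on low counts, 0.663 in thinned libraries and 0.839 without replicate 1 of KO1. With the replicate number as a block, 1 of these 3 genes was called.

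**Figure D3:**
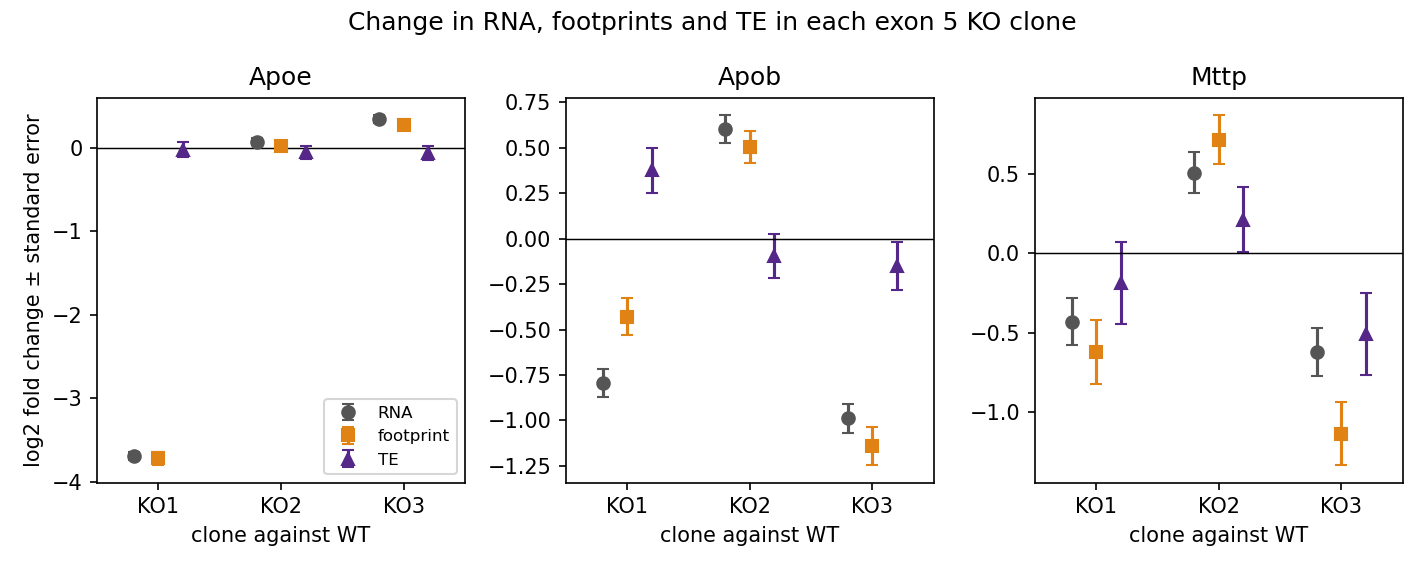
Log2 change against WT (vertical axes, scaled for each gene) with standard error in RNA (circles), footprints (squares) and TE (triangles) for Apoe, Apob and Mttp in KO1, KO2 and KO3. RNA and footprint changes have the same sign in each clone, as in KO1 for Apoe (-3.69 and -3.72), and the TE changes lie between -0.51 and 0.38.

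The fall of Apoe in KO1 was shared by the apolipoprotein genes next to it. Apoe (chromosome 7, 19696109 to 19699188, minus strand) is followed in its direction of transcription by Apoc1, Apoc4 and Apoc2 within 21.2 kb. Apoc2 is the cofactor that activates lipoprotein lipase, and Apoc4 is a minor apolipoprotein. Apoc2 RNA counts were 338 and 325 in WT cells, 22 and 16 in KO1, 788 and 776 in KO2 and, in KO3, 165 and 171. Its log2 changes in KO1, KO2 and KO3 were -4.08, 1.23 and -1.11 (edgeR adjusted p = 6.6e-24, 6.14e-09 and 1.83e-11). The KO1, KO2 and KO3 libraries were each separate from WT, with KO2 high and KO1 low.

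Apoc4 RNA counts were 544 and 602 in WT cells, 165 and 146 in KO1, 712 and 886 in KO2 and, in KO3, 569 and 546, with a log2 change of -1.85 in KO1 (edgeR adjusted p = 3.88e-20). Apoc2 has the same counts in every library as Gm44805, an overlapping gene model, so reads of the models in this stretch are shared. The genes just outside changed less, Tomm40, a mitochondrial import channel 16.2 kb before Apoe, by -0.50 and Clptm1, 34.2 kb beyond it, by -0.52 in KO1. Farther out on the Tomm40 side, Bcam (a cell adhesion molecule) rose by 1.06 and Nectin2 by 0.68, while Pvr fell by 1.23 (edgeR adjusted p = 1.55e-15) and was also lower in KO2 and KO3. Of the 20 neighbours tested within 250 kb of Apoe, 5 were higher and 9 lower in KO1, against 22.1% and 24.6% of all genes. Of 19 tested, 3 were higher and 3 lower in KO2, against 11.6% and 8.84% of all genes, and 0 were higher and 11 lower in KO3, against 23.1% and 22.3%. Apoc2 and Gm44805, with the same counts, each enter these numbers. Gm19345, 1 of the 5 higher in KO1, had 3 and 6 RNA counts in WT cells and 21 and 14 in KO1. It passed the filter on low counts through KO1 alone, where it was high, and was not tested in KO2 or KO3. Relb, also among the 5, rose by 0.35 in KO1, and by 0.22 without replicate 1 of KO1. Of the 11 genes lower in KO3, Apoc1, Clptm1 and Gemin7 were not called with DESeq2, without replicate 1 of WT or without replicate 2 of KO3, and Nectin2 was not called without replicate 2 of WT. The window was chosen after the values were seen.

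**Figure D4:**
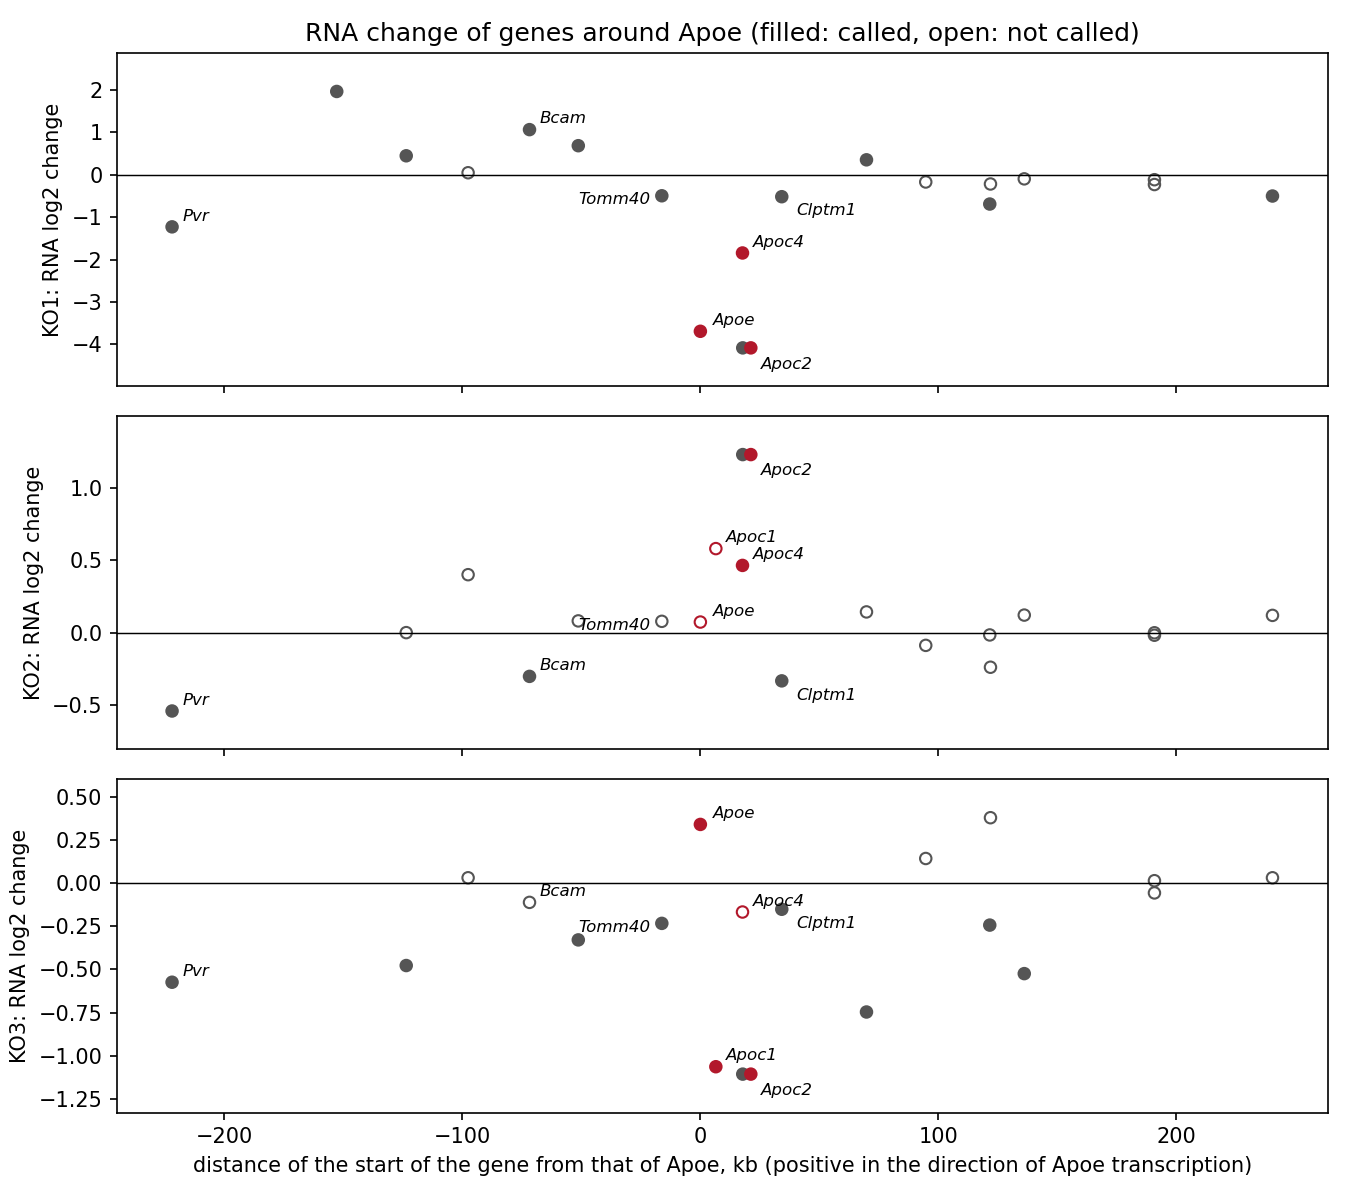
RNA log2 change in KO1, KO2 and KO3 (vertical axes, own scale) of genes tested within 250 kb of Apoe against the distance of their start from that of Apoe in kb. Red marks apolipoprotein genes, filled symbols are called genes, and Apoc1 is not drawn for KO1, where it had 0 and 1 counts. In KO1 Apoe, Apoc4 and Apoc2 lie between -1.85 and -4.08, and Tomm40 and Clptm1 beside them near -0.5.

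Hepatocyte markers also moved in KO1. Their summed level was 4578 and 4440 CPM in WT RNA-seq, 2156 and 2177 in KO1, 3978 and 3974 in KO2 and, in KO3, 5865 and 6027. Of the 7 markers tested, 7 were lower in KO1, with Hnf4a at -1.97, Trf at -1.75, Alb at -1.51 and Fgb at -1.40. In KO2 4 were lower and 0 higher, with Fgb at -2.43. In KO3 4 were higher and 3 lower, with Alb at 1.25 and Afp at 0.65 but Trf at -0.62, Fgb at -0.72 and Hnf4a at -0.36. Among all genes, 24.6% were lower in KO1, 8.84% were lower in KO2, and 23.1% were higher and 22.3% lower in KO3. The enterocyte marker Vil1 was lower in KO1 too, with 1122 and 1044 RNA counts against 2106 and 2163 in WT cells, while Sis, the other enterocyte marker tested, had 38 and 38 against 25 and 46 and did not pass the test. The part of these markers in the apolipoprotein changes was not tested. Trf, the iron carrier of serum, was the sole marker called for TE, with 0.56 in KO1 (edgeR adjusted p = 0.00326), and that call was lost without replicate 2 of KO1. With a lysate block, 2 markers were called in KO1 and 1 in KO3, and 1 was called in KO3 without a filter on low counts and with a replicate block.

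The wider pathway was followed in 5 lists, whose counts of called genes stand against 46.7% of all genes in KO1, 20.4% in KO2 and 45.4% in KO3. Among 14 other apolipoproteins and lipoprotein-bound proteins, 5 were tested in KO1, of which 0 rose and 3 fell, namely Apoc2, Apoc4 and Clu (clusterin, -1.30, edgeR adjusted p = 2.46e-30). The median change was -1.30, against 0.00 over all genes. In KO2 2 of 5 rose (Apoc2 and Apoc4) and 0 fell, with a median of 0.46, and in KO3 0 of 6 rose and 1 fell (Apoc2), with a median of -0.10.

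Lipidation of the particle and its exit from the ER were covered by 21 tested genes. In KO1 3 rose and 9 fell (median -0.20), in KO2 5 rose and 0 fell (median 0.07), and in KO3 5 rose and 8 fell (median -0.12). The 13 calls in KO3 became 8 without replicate 1 of WT and 7 without replicate 2 of WT. Of all genes, 22.1% rose and 24.6% fell in KO1, 11.6% rose and 8.84% fell in KO2, and 23.1% rose and 22.3% fell in KO3. Tmem41b, an ER scramblase, had 1326 and 1592 RNA counts in WT cells, 436 and 431 in KO1, and 758 and 719 in KO3. It fell by 1.71 in KO1 (edgeR adjusted p = 2.8e-25) and by 1.11 in KO3 (edgeR adjusted p = 3.47e-23). Dgat2, which makes triglyceride, fell by 1.72 in KO1 from 30 and 48 counts to 18 and 5, and by 2.84 without replicate 1 of KO1 or by 1.13 without replicate 2 of KO1. Sec24d, a COPII cargo adaptor, rose by 0.74 in KO2, followed by Vmp1 (0.48) and Mia3 (0.39). The sorting receptor Sort1 rose by 0.66 in KO1 and fell by 0.94 in KO3, where the sterol acyltransferase Soat1 rose by 1.07 on 17 and 13 counts in WT cells, a call that was lost with DESeq2 (adjusted p = 0.143).

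Receptors and uptake genes (12 tested) had 3 higher and 5 lower in KO1 (median -0.01), 0 and 2 in KO2 (median -0.10), and 4 and 1 in KO3 (median 0.02), beside 46.7%, 20.4% and 45.4% of all genes called in either direction. DESeq2 called 5 in KO1 in place of 8. The endocytic Apoe receptor Lrp1 had 2321 and 2184 RNA counts in WT cells and 8233 and 8565 in KO3, a rise of 1.77 (edgeR adjusted p = 4.96e-47), and its footprints rose there by 1.69. It fell by 0.40 in KO2. Lsr, a lipolysis-stimulated lipoprotein receptor, fell by 0.75 in KO1, and Mylip, a ubiquitin ligase, fell by 1.06. The Mylip call was lost with DESeq2 (adjusted p = 0.181). Lsr also fell in KO2 (-0.29). In KO3 Scarb1, the receptor of high density lipoprotein, fell by 0.75 and Vldlr rose by 0.69.

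Lipolysis and cholesterol efflux genes (7 tested) had 2 higher and 1 lower in KO1 (median 0.03), 0 and 1 in KO2 (median -0.26), and 1 and 3 in KO3 (median -0.08), where 46.7%, 20.4% and 45.4% of all genes were called in KO1, KO2 and KO3. The 4 calls in KO3 became 2 without replicate 1 of WT, and the call in KO2 became 0 without replicate 1 of WT or replicate 2 of KO2 and 2 without replicate 1 of KO2. Angptl4, an inhibitor of lipoprotein lipase, was lower in every clone, by 1.00, 0.39 and 1.27 in KO1, KO2 and KO3 (edgeR adjusted p = 8.95e-10, 0.0207 and 2.55e-14). The KO2 call was lost with DESeq2 (adjusted p = 0.105) and without replicate 1 of WT or replicate 2 of KO2. Lpl, the lipase itself, rose by 1.38 in KO3. Of the cholesterol exporters, Abca1 rose by 0.31 in KO1 and Abcg1 fell by 0.95 in KO3, and Lmf1, a maturation factor of lipases, rose by 0.39 in KO1. The calls of Lmf1 and Abcg1 were lost with DESeq2 (adjusted p = 0.101 and 0.159), and that of Abca1 without replicate 2 of WT (edgeR adjusted p = 0.188).

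Transcription factors of the liver and the Apob mRNA editing genes (18 tested) had 2 higher and 10 lower in KO1 (median -0.36), 1 and 3 in KO2 (median -0.08), and 5 and 6 in KO3 (median -0.10). The shares called among all genes were again 46.7%, 20.4% and 45.4%. The 4 calls in KO2 became 1 with DESeq2 or without replicate 1 of WT and 2 without replicate 1 of KO2. Hnf4a, an activator of apolipoprotein genes, had 1203 and 1219 RNA counts in WT cells, 357 and 250 in KO1, 992 and 1205 in KO2 and, in KO3, 1028 and 1038. KO1 lay far below the other lines (log2 change -1.97, edgeR adjusted p = 2.74e-25). Onecut1 fell by 1.02 in KO1, while Nr5a2, a nuclear receptor, rose by 1.26 there and by 0.59 in KO2 and fell by 1.61 in KO3. Its KO2 call was lost without replicate 1 of WT (0.42, edgeR adjusted p = 0.116). Ppargc1a, a coactivator of Hnf4a, fell by 2.81 in KO3, from 72 and 90 counts to 15 and 10, and Prox1 by 1.15. In KO2 Foxa1 fell by 0.76 and Cebpa fell by 0.37, and both calls were lost with DESeq2 (adjusted p = 0.102 and 0.134). With 1 replicate left out, the change lay between -1.16 and -0.47 for Foxa1 and between -0.53 and -0.24 for Cebpa. No gene of the 5 lists was called for TE in any clone, with edgeR or DESeq2, and 5 of 61, 3 of 61 and 4 of 62 tested had an unadjusted p under 0.05 in edgeR in KO1, KO2 and KO3, beside 7.08%, 4.28% and 6.07% of all genes. Without replicate 1 of KO3, 1 gene of the last list was called in KO3.

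**Figure D5:**
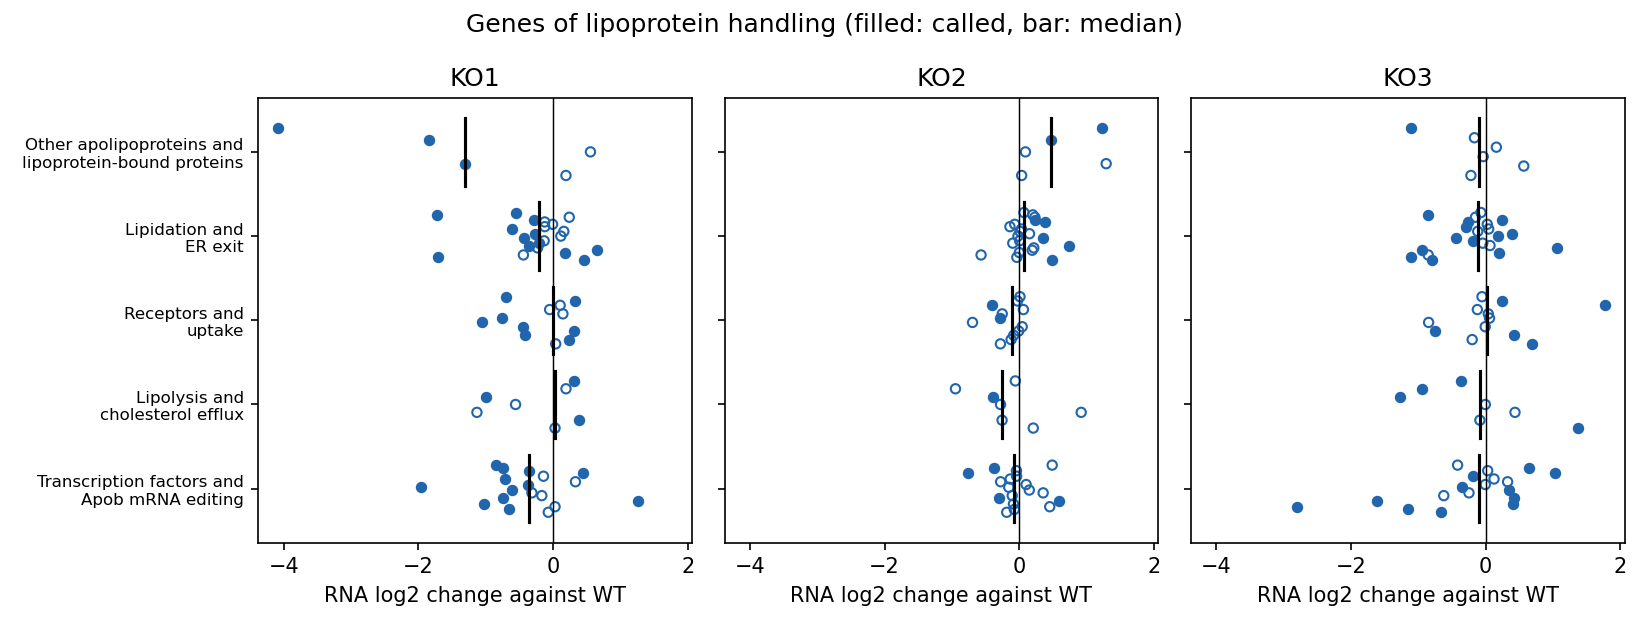
RNA log2 change against WT (horizontal axis) of each tested gene in the 5 lists in KO1, KO2 and KO3. Filled symbols are called genes and bars are list medians, which run from -1.30 (other apolipoproteins, KO1) to 0.46 (the same list, KO2).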

How the data were processed

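RNA-seq and Ribo-seq were performed on WT Hepa1-6 cells and on 3 Eef1d exon 5 KO clones, with 2 replicates of each, 16 libraries in all. The deposited values are raw counts per transcript, without normalization. Per the labels and the methods of the study, the authors trimmed reads with fastp 0.21.0, aligned them to mm10 with STAR 2.7.0a on GENCODE vM23 and counted A-site positions, leaving out 5 codons at either end of a coding sequence. The other deposited column is the counted length in codons. The labels name polyA RNA as the molecule while the protocol describes rRNA depletion, and which holds was not settled. A read that fits several transcripts counts on each. The study tabulates uniquely mapped reads, and the strand setting of the counting is not given in the sources used here.

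One transcript per gene was kept, the one with the largest sum (67139 transcripts, 22392 genes, and 10901040 counts in the first WT RNA-seq library after this step). Transcripts of Apoe and of Apoa2 tied, and the first listed was taken. edgeR 4.0.16 (R 4.3.3) fitted quasi-likelihood models with filterByExpr and TMM factors within each assay, per clone, on 4 libraries for RNA or footprints and on 8 for TE, the interaction of line and assay. The difference between clones was an F test over all libraries. Benjamini-Hochberg p-values over all genes tested were called under 0.05. Standard errors follow from the F statistic, and 95% intervals assume a normal distribution. Levels are CPM with TMM per kb, and TE levels used a pseudocount of 0.1 CPM. On simulated data for KO1, edgeR recovered 93 of 100 genes given a log2 change of 1 in RNA, 84 in footprints and 70 in TE, and 10 of 11315, 6 of 10135 and 17 of 11480 unchanged genes. A further 100 genes had a log2 change of 2, and all others were unchanged. In the data 46.7% of genes were called in RNA of KO1, so the recovery may differ there. Changes smaller than 1, such as the TE changes of these genes, were not simulated. The shallowest Ribo-seq library held 1138943 counts in 1 transcript per gene.

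The text names all 10 genes and, from each pathway list, up to 3 called genes per clone with the largest RNA change, every gene called for TE, and the markers. One gene that this rule names is not reported here. Lrp1 footprints and the neighbours of Apoe, Apob and Mttp were chosen after values were seen. The genes and lists were chosen with earlier results of these data known. Alternatives were DESeq2 size factors, no filter, at least 10 counts in every library, all transcripts, a replicate block, a lysate block, 1 fit over all libraries, TMM over both assays, thinned libraries, DESeq2 1.42.0 and leaving out each replicate. Positions are from GRCm38 with GENCODE vM21 and from RefSeq (GRCm38.p6).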

Additional observations from a re-analysis of the deposited data

Results flagged for a closer look

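The change against WT differed between the 3 clones for all 5 genes tested in RNA and all 3 tested in footprints. In RNA, the edgeR test of equal clones gave adjusted p-values of 5.13e-34 for Apoe, 5.54e-20 for Apob, 5.96e-09 for Mttp, 1.86e-07 for Apoc1 and 0.00675 for Apoa2, which was not called without replicate 2 of KO3 (edgeR adjusted p = 0.105). The log2 RNA change of Apoe was -3.69 in KO1, against 0.07 and 0.34 in KO2 and KO3, and Apob and Mttp were higher than WT in KO2 and lower in KO1 and KO3. In footprints the values were 7.14e-34 for Apoe, 2.09e-17 for Apob and 6.09e-12 for Mttp. Among all genes, 74.0% differed between clones in RNA and 59.5% in footprints. Each clone grew from 1 edited cell, and the cause of these differences between clones was not tested.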

How the results depend on the processing

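The changes of Apoe in KO1 ranged from -3.72 to -3.68 in RNA and from -3.82 to -3.52 in footprints over all alternatives run, and those of Apob kept their sign in RNA and footprints of all 3 clones. The number of genes called in RNA was 3 in KO3 with DESeq2 in place of 5. Leaving out 1 replicate gave 3 to 5 calls in KO3, 1 to 3 in KO2 (2 with all libraries) and 3 or 4 in KO1. In footprints DESeq2 called 1 gene in KO1 in place of 3 and 1 in KO2 in place of 2, and thinning every library to the smallest called 1 in KO2. The causes were not tested. A difference in TE between clones was called for 1 gene, Apob, without a filter on low counts, and for 1 gene with the replicate number as a block (edgeR adjusted p = 0.0305). Of Apoe, Apob and Mttp, 0 were called for TE in a single clone under the alternatives run. Some TE changes near 0 turned sign. The TE change of Apoe in KO1 was 0.0317 in thinned libraries and from -0.106 to 0.152 when 1 replicate was left out. That of Mttp lay between -0.682 and 0.133 in KO1 and between -0.0601 and 0.536 in KO2 when 1 replicate was left out, and was -0.176 in KO2 in thinned libraries. Across genes, libraries of WT and a clone with the same replicate number correlated with r between 0.085 and 0.236 (RNA-seq) or between 0.069 and 0.106 (Ribo-seq), so the numbers were not taken to pair them. The block moved no count over the 10 genes in RNA, footprints or TE of a single clone. With it, 2 lipolysis and efflux genes were called in KO2 in RNA and 2 in footprints, and 5 hepatocyte markers in KO2 footprints and 1 in KO3 TE, counts that moved by over 1.5 times. Counts were low for Mttp, with 14 footprints in the shallowest library, and for Apoa2 and Apoc1 in RNA. In the pathway lists 1 transcription factor or editing gene was called for TE in KO3 without replicate 1 of KO3. DESeq2 gave no adjusted p for some TE changes, which were left out of counts of lost calls.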

Other observations

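Genes near Mttp and Apob were looked at after their values were seen, within 250 kb. Adh7, an alcohol dehydrogenase 72.8 kb before Mttp, had 132 and 163 RNA counts in WT cells, 278 and 294 in KO1, 310 and 359 in KO2 and, in KO3, 306 and 273. It rose in every clone, by 0.99, 1.17 and 0.85 on the log2 scale (edgeR adjusted p = 3.12e-08, 7.43e-07 and 4.7e-07), while Mttp rose in KO2 alone. 1110002E22Rik, 79.9 kb beyond Mttp, had 31 and 26 RNA counts in WT cells, 6 and 6 in KO1, 59 and 49 in KO2 and, in KO3, 7 and 6, so that, like Mttp, it was low in KO1 and KO3 and high in KO2. Its log2 changes were -2.19, 0.91 and -2.24 (edgeR adjusted p = 0.000217, 0.0368 and 6.8e-05). In the comparisons of KO1 and KO3 with WT it passed the filter on low counts through WT alone, where it was higher. Trmt10a, whose start lies 1.5 kb from that of Mttp, changed by 0.35 in KO1 (edgeR adjusted p = 0.0152) and by -0.01 and -0.03 in KO2 and KO3, which did not pass the test. The 1 neighbour of Apob in the table, Ldah, a lipid droplet protein 230.5 kb away, changed by -0.44 in KO1 (edgeR adjusted p = 0.0489), -0.28 in KO2 and 0.24 in KO3.

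Csf1r, a receptor of macrophages, had 31 and 62 RNA counts in WT cells and 198 and 179 in KO1, where Adgre1 and C1qa were at 0. Cd68, the other macrophage marker tested, had 70 and 63 in WT cells and 48 and 46 in KO1 and did not pass the test. Of 4 fibroblast markers tested in KO3, 2 were higher and 1 lower, against 23.1% and 22.3% of all genes. Of 3 tested in KO1, 1 was higher and 1 lower, against 22.1% and 24.6%. Of 3 tested in KO2, 0 were higher and 2 lower, against 11.6% and 8.84%. Col3a1 had 4 and 2 RNA counts in WT cells and 55 and 50 in KO3, and Pdgfra had 87 and 98 in WT cells and 17 and 22 in KO3. Col3a1 passed the filter on low counts through KO3 alone, where it was high, and was not tested in KO1 or KO2. The number of fibroblast markers higher in KO3 can therefore not be weighed against the share of all genes. Col1a1 had 7 and 11 in WT cells and 38 and 26 in KO1. Of 5 endothelial markers, 1 was lower in each clone, of 2 tested in KO1 and of 1 tested in KO2 and in KO3. Among all genes, 24.6%, 8.84% and 22.3% were lower in KO1, KO2 and KO3. Pecam1, the marker called, had 25 and 17 RNA counts in WT cells, 10 and 7 in KO1, 6 and 9 in KO2 and, in KO3, 1 and 8. It passed the filter on low counts through WT cells alone, where it was high. The endothelial counts can therefore not be weighed against the shares of all genes.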
